A study of Medicago truncatula with 16 samples.

Results

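The part of the series described here is the response of 5 mm radicles to polyethylene glycol (PEG). It was chosen by the sample names alone, as the 4 libraries of R5P and R5 among the 16 libraries of the series, and all genes of the count table were considered. R5P were radicles of *Medicago truncatula* A17 seeds that had germinated to a radicle of 5 mm and had then spent 3 days in PEG8000 at -1.7 MPa and 10 °C in the dark. R5 were radicles of the same length and genotype without that treatment. A control for cold, darkness and time without PEG was not among the groups, so osmotic stress, cold, darkness and the added days cannot be told apart in R5P. The same holds for R1P and R1, the treated and untreated radicles of 1 mm used for comparison, and for C5P and C5, the cotyledons of the 5 mm stage. Each group had 2 biological replicates of pooled seeds. The number pooled is given as 50 in one source and as about 100 in another. The radicles are called desiccated in one place and the seeds freshly harvested in another, which leaves unclear if RNA came from dried tissue. Whether replicates came from separate plants is not stated, and the p-values measure the spread between these libraries only.

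Desiccation tolerance (DT) is the ability to survive almost complete loss of water, and orthodox seeds lose it as the radicle grows after germination. In germinated seeds with a short radicle, a mild osmotic stress can bring DT back, whereas beyond a certain radicle length the same stress no longer does so. R5P belongs to the second case: the radicle had received the stress but remained desiccation sensitive. Protection in the dry state is attributed to late embryogenesis abundant (LEA) proteins and dehydrins, to sucrose and oligosaccharides of the raffinose family that form a glass, to antioxidants and to oleosins that keep lipid droplets apart. Abscisic acid and the transcription factors ABI3, ABI4 and ABI5 drive this programme during seed maturation. The question addressed here was which genes responded in radicles that did not regain DT.

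Estimated counts summed to 22700483 and 22982625 in the R5P replicates and to 22912292 and 23001632 in the R5 replicates. Levels are given as CPM (counts relative to library size), scaled with TMM (a normalization on the bulk of the genes) and not corrected for gene length. The log2 CPM of replicates had a Pearson correlation of 0.965 across genes in R5P and 0.984 in R5, and the median gap between replicates was 0.34 in R5P and 0.17 in R5 on the log2 scale, so R5P was the less even pair. The 5 greening markers (chlorophyll A-B binding proteins and photosystem II) summed to 78.4 and 97.9 CPM in R5P and 24.1 and 20.2 CPM in R5, against 408 and 506 CPM in C5P and 146 and 123 CPM in C5. A single gene, MtrunA17_Chr5g0448421, carried the gap between R5P and R5, and the other 4 summed to 15.1 and 23.2 CPM in R5P and 13.9 and 12.7 CPM in R5. A casparian strip membrane protein, a family known from the root endodermis, was at 9 and 8.83 CPM in R5P and 11.4 and 15.4 CPM in R5, but also at 66.7 and 31.1 CPM in C5, so it did not mark the radicle here. Bulk RNA cannot tell a change in the share of a cell type from a change in RNA per cell.

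Of 23793 genes tested, 9347 (39.3%) were called between R5P and R5, with 4486 (18.9%) higher and 4861 (20.4%) lower in R5P. A call required an adjusted p under 0.05 in edgeR's quasi-likelihood test over the 8 radicle libraries and a fold change over 2. The genes called higher held 46.1% and 43.0% of all counts in the R5P libraries, against 13.0% and 12.6% in the R5 libraries. Those called lower held 6.22% and 6.52% in R5P, against 28.8% and 29.4% in R5. A change of over 4 on the log2 scale was found for 572 of the higher and 682 of the lower genes. The split depended on the scaling: scaling by library totals instead of TMM gave 3098 higher and 6699 lower genes, and the median over all genes moved to -0.36 from -0.01 on the log2 scale. Gene products could be named for 4475 of the tested genes, those listed in the study's supplementary tables, most of which the study had selected for a change between R1P and R1. Accordingly 38.3% of the named genes were called higher and 33.7% lower, and 65.5% of the called genes carry no name here. The study's clusters, from which most names come, were formed on levels that include R5P and R5. In the genes held from its cluster 2, 968 of 1032 tested were called higher and none lower. In its cluster 6, 1190 of 1522 were lower and none higher. Counts by list at 5 mm therefore describe that choice in part and are no independent evidence that a family responds.

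The largest rises among annotated genes of at least 10 CPM included genes of lipid and aldehyde metabolism. A linoleate 9S-lipoxygenase (MtrunA17_Chr2g0329901), which oxidises polyunsaturated fatty acids, was at 391 and 405 CPM in R5P, against 0 and 0.184 CPM in R5 (log2 fold change 11.98, standard error 0.75, adjusted p = 1.02e-06, edgeR). Since R5 had 0 and 5 counts of it, the size of this change rested on them, at 11.03 without the first R5 library and 16.13 without the second. An aldose reductase (MtrunA17_Chr7g0243551), an enzyme that reduces the aldehyde group of sugars, had 1602 and 1285 counts in R5P against 0 and 1 in R5, a ratio of 3700.0 with a 95% exact binomial interval of 663 to 146000.0, which covers counting error only. The 2 libraries of R5P lay far above those of R5 for both genes, and one R5 library had no count at all. A plant seed peroxygenase (MtrunA17_Chr1g0186321), a lipid droplet enzyme of the caleosin family, reached 152 and 155 CPM in R5P against 0.0378 and 0.331 CPM in R5. An aldehyde dehydrogenase (MtrunA17_Chr3g0117861), of a family that detoxifies aldehydes, stood at 134 and 147 CPM in R5P against 0.189 and 0.11 CPM in R5, and a cupin (MtrunA17_Chr1g0185301), of the superfamily that includes seed storage globulins, at 2361 and 2177 CPM in R5P against 1.93 and 1.73 CPM in R5. Their log2 fold changes were 9.64, 9.83 and 10.27 (adjusted p = 2.35e-07, 1.92e-08 and 8e-09, edgeR), and that of the peroxygenase was 8.83 without the first R5 library and 11.78 without the second. The remaining places among the 8 largest rises were taken by 2 oleosins and a LEA_1 protein, which are described with their families.

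**Figure D1:**
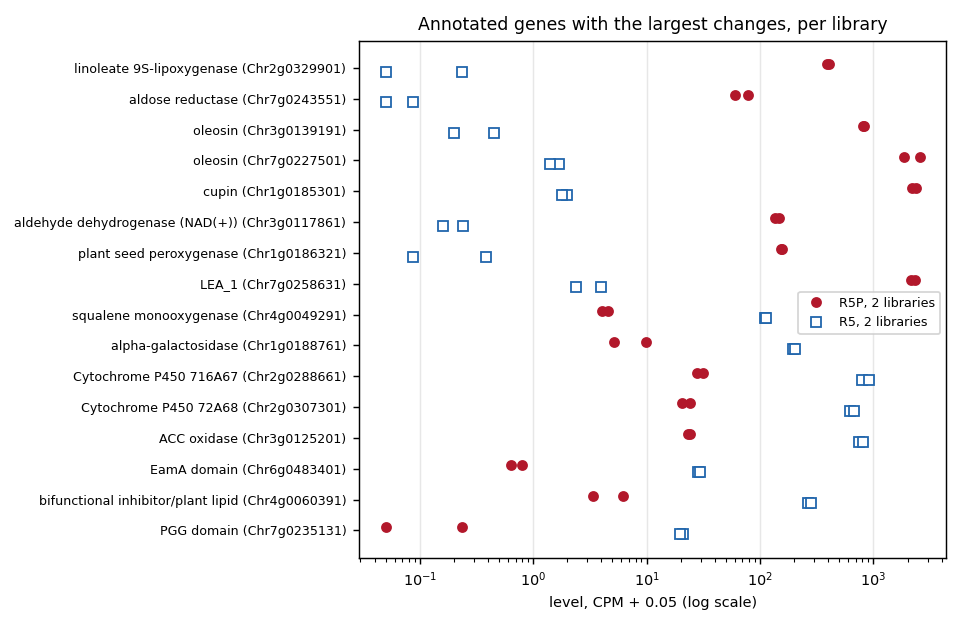
Level of the 16 annotated genes with the largest rises and falls in each library, as CPM + 0.05 on a log axis, with filled circles for the 2 R5P libraries and open squares for the 2 R5 libraries. The lipoxygenase is at 391 and 405 CPM in R5P and at 0 and 0.184 CPM in R5, and for each of the 16 genes the groups do not overlap, which the rule for choosing them required.

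The largest falls included an enzyme of ethylene synthesis and an alpha-galactosidase. A 1-aminocyclopropane-1-carboxylate oxidase (MtrunA17_Chr3g0125201), which makes ethylene from its precursor, was at 24.1 and 22.9 CPM in R5P, against 749 and 800.4 CPM in R5 (-5.04 ± 0.15 SE on the log2 scale, adjusted p = 2.38e-08, edgeR). An alpha-galactosidase (MtrunA17_Chr1g0188761), of the enzymes that release galactose from raffinose family oligosaccharides, was at 5.06 and 9.91 CPM in R5P, against 196 and 202 CPM in R5 (-4.73 ± 0.32, adjusted p = 1.75e-06, edgeR; -5.32 without the second R5P library). A gene with a lipid transfer and seed storage helical domain (MtrunA17_Chr4g0060391) was at 3.29 and 6.1 CPM in R5P, against 264 and 281 CPM in R5. Both R5P libraries lay far below both R5 libraries for these 3 genes. The PGG domain gene MtrunA17_Chr7g0235131 (0 and 4 counts in R5P) and the EamA domain gene MtrunA17_Chr6g0483401, of a family of membrane transporters, were at 0 and 0.186 and at 0.589 and 0.744 CPM in R5P, against 20.7 and 19.7 and 28.4 and 29.5 CPM in R5.

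The 4 largest gains in mean CPM included the LEA_1 gene MtrunA17_Chr7g0258641 and the dehydrin HIRD11, which are given with their family. The others were those of a gene without annotation, MtrunA17_Chr2g0289861, with 27004 and 12423 CPM in R5P and 7955 and 6529 CPM in R5, and of a putative protein, MtrunA17_Chr4g0003721, with 13236 and 7199 CPM in R5P and 49.7 and 41.9 CPM in R5. The gene without annotation had a log2 fold change of 1.44 (adjusted p = 0.00299, edgeR), which rested on the first R5P library: without it the change was 0.78 and was not called. The putative protein had 7.80 (adjusted p = 1.17e-07, edgeR). The largest losses were those of a primary-amine oxidase (MtrunA17_Chr4g0065981), which oxidises polyamines to aldehydes and hydrogen peroxide, with 1449 and 1412 CPM in R5P and 7063 and 7200.2 CPM in R5 (-2.32, adjusted p = 5.77e-07, edgeR). A beta-glucosidase (MtrunA17_Chr4g0006131), which cleaves glucose from glucosides, followed with 606 and 734 CPM in R5P and 5994 and 6635 CPM in R5 (-3.24, adjusted p = 3.56e-07, edgeR). The other 2 of the 4 largest losses, MtrunA17_Chr7g0253781 (-1.68) and MtrunA17_Chr1g0161751 (-2.27), carry no annotation, and the change of the last was -3.03 without the first R5P library.

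LEA proteins and dehydrins, hydrophilic proteins thought to protect membranes and enzymes in the dry state, rose in almost all named members. Of 20 members, 18 were higher in R5P, 1 was lower and 1 was not called, with a median log2 fold change of 7.14 against -0.01 over all genes. Summed over the list, they made up 50096 and 34631 CPM in R5P, against 728 and 616 CPM in R5. The LEA_1 gene MtrunA17_Chr7g0258631 was at 2137 and 2304 CPM in R5P, against 3.94 and 2.36 CPM in R5 (9.46 ± 0.48 SE, adjusted p = 2.95e-07, edgeR). A second LEA_1 gene, MtrunA17_Chr7g0258641, was at 12011 and 10041 CPM in R5P, against 44.5 and 36.2 CPM in R5 (8.09 ± 0.29, adjusted p = 4.69e-08, edgeR). The dehydrin HIRD11 (MtrunA17_Chr7g0253841) already had a high level in R5 and was at 13033 and 6747 CPM in R5P, against 469.7 and 405 CPM in R5 (4.50 ± 0.30, adjusted p = 1.52e-06, edgeR). For HIRD11 the first R5P library was well above the second, and both were above R5. MtPM25 (MtrunA17_Chr1g0205331) and MtEM6 (MtrunA17_Chr4g0007001), LEA proteins of the SMP and LEA_5 groups, were at 186 and 171 and at 778 and 584 CPM in R5P, against 0.606 and 0.294 and 5.03 and 3.09 CPM in R5. In the LEA_2 group, which is known to include atypical, more hydrophobic members, MtrunA17_Chr8g0348171 also rose. It was at 144 and 207 CPM in R5P, against 0.341 and 0.626 CPM in R5 (8.49, adjusted p = 5.35e-08, edgeR). The exceptions were of this group too: MtrunA17_Chr2g0278391 was at 10.9 and 5.44 CPM in R5P and 21.4 and 13 CPM in R5 (-1.07, adjusted p = 0.0275, edgeR), and MtrunA17_Chr2g0330241 was at 71 and 36.5 CPM in R5P and 35.2 and 23 CPM in R5 (0.88, not called). The lower call was lost without the first R5 library (-0.67) or the second R5P library (-0.68), and was -1.66 without the first R5P library.

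Oleosins, seed storage proteins and enzymes of the raffinose family oligosaccharides were higher in every tested member. All 7 oleosins were called, with a median of 7.86, or 7.27 with the member that had no count in R5 set at its bound. The oleosin MtrunA17_Chr3g0139191 was at 820.5 and 813 CPM in R5P, against 0.151 and 0.405 CPM in R5, and MtrunA17_Chr7g0227501 was at 2555 and 1854 CPM in R5P, against 1.63 and 1.36 CPM in R5. These are changes of 11.48 ± 0.40 and 10.52 ± 0.31 SE on the log2 scale (adjusted p = 3.98e-08 and 2.38e-08, edgeR), and the first was 12.34 without the second R5 library. The oleosin MtrunA17_Chr2g0307331 had 62 and 64 counts in R5P and none in R5, and was at least 26.9-fold higher, taking 3 counts per R5 library as the floor. A diacylglycerol O-acyltransferase (MtrunA17_Chr2g0299671), of the enzymes that complete storage oil, was at 27.2 and 25.2 CPM in R5P and 16.2 and 14.1 CPM in R5 (0.79, adjusted p = 0.00192, edgeR), below the fold change required.

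Of the 9 storage protein genes tested, all were called higher, with a median of 5.15. With library totals 7 were called higher, and the count also fell without some single libraries. The albumin Mt2SA3 (MtrunA17_Chr2g0319551) was at 109 and 60.8 CPM in R5P, against 0.265 and 0.221 CPM in R5 (8.42 ± 0.52 SE, adjusted p = 9.82e-07, edgeR). The 6 tested legumin-type (11-S) genes summed to 688 and 604 CPM in R5P, against 34.4 and 29.5 CPM in R5, and 1 of them, MtrunA17_Chr1g0185841, supplied 552 and 463 CPM of that in R5P. The remaining 11-S gene, MtrunA17_Chr5g0405881, had 0 and 0 counts in R5P and 4.12 and 6.07 counts in R5, too few to be tested. Both R5P libraries exceeded both R5 libraries for the albumin and for the 11-S sum.

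Galactinol synthases and the galactosyltransferases that build raffinose and stachyose from galactinol were all 7 called higher, with a median of 5.20. A galactinol--sucrose galactosyltransferase (MtrunA17_Chr7g0257731), the raffinose synthase step, was at 6561 and 6922 CPM in R5P, against 180.0 and 166 CPM in R5 (5.28 ± 0.17 SE, adjusted p = 2.7e-08, edgeR). The galactinol synthase MtrunA17_Chr7g0271581 was at 118 and 97.6 CPM in R5P, against 1.78 and 1.8 CPM in R5 (5.91, adjusted p = 3.47e-08, edgeR). In both genes the R5P replicates differed by little relative to their distance from R5. The galactinol--raffinose galactosyltransferase MtrunA17_Chr7g0267991, the stachyose step, was at 10.6 and 13.2 CPM in R5P, against 2.8 and 3.39 CPM in R5 (1.94, adjusted p = 7.53e-05, edgeR).

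**Figure D2:**
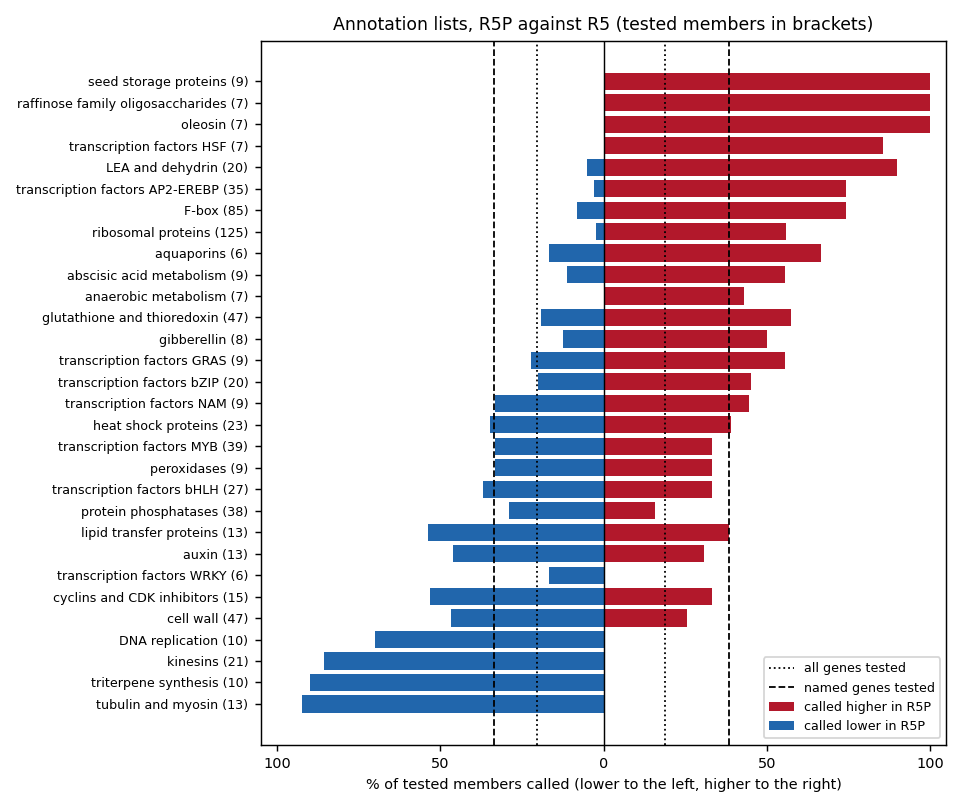
Share of the tested members of each annotation list called higher (bars to the right) or lower (bars to the left) in R5P than in R5, with the number tested in brackets dotted lines at the 18.9% and 20.4% of all genes, and dashed lines at the 38.3% and 33.7% of the named genes from which the lists were drawn. Oleosins, storage proteins and raffinose family enzymes reach 100% higher, and kinesins, tubulin and myosin, and triterpene synthesis genes are called lower only.

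Genes of abscisic acid metabolism moved on both the synthesis and the breakdown side. Of 9 tested, 5 were called higher (55.6%) and 1 lower (11.1%), against 38.3% and 33.7% of all named genes. The abscisic acid 8'-hydroxylase MtrunA17_Chr1g0164371, which inactivates the hormone, was at 12.8 and 11.8 CPM in R5P, against 1.1 and 1.36 CPM in R5 (3.31, adjusted p = 1.87e-05, edgeR). The abscisate beta-glucosyltransferase MtrunA17_Chr4g0044521, which stores it as a glucose ester, was at 19.5 and 10.1 CPM in R5P, against 2.5 and 2.47 CPM in R5 (2.57, adjusted p = 0.000119, edgeR). Zeaxanthin epoxidase (MtrunA17_Chr5g0443651), an early step of synthesis, was at 2.9 and 3.07 CPM in R5P and 1.02 and 0.552 CPM in R5, called higher at a low level. The carotenoid oxygenase MtrunA17_Chr8g0352301, of the family that includes the enzyme cleaving the carotenoid precursor, was at 8.54 and 4.33 CPM in R5P, against 17.4 and 19.1 CPM in R5 (-1.51, adjusted p = 0.00141, edgeR).

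MtABI3, MtABI4 and MtABI5, regulators of seed maturation, were called higher. MtABI3 (MtrunA17_Chr7g0237841), a B3 domain factor, was at 16.9 and 14.1 CPM in R5P, against 0.719 and 0.589 CPM in R5 (4.56 ± 0.20 SE, adjusted p = 1.3e-07, edgeR). MtABI4 (MtrunA17_Chr5g0437371), of the AP2-EREBP family, was at 10.4 and 7.12 CPM in R5P, against 0.681 and 1.07 CPM in R5 (3.31 ± 0.29, adjusted p = 9.35e-06, edgeR). MtABI5 (MtrunA17_Chr7g0266211), a bZIP factor, was at 117 and 83.9 CPM in R5P, against 29.4 and 29.8 CPM in R5 (1.76 ± 0.18, adjusted p = 2.45e-05, edgeR). R5P and R5 did not overlap for any of the 3. Among factor families, 26 of 35 AP2-EREBP genes were higher and 1 was lower (median 2.31, or 2.15 with floor genes at their bound), and 9 of 20 bZIP genes were higher and 4 lower (median 0.74). The bZIP gene MtrunA17_Chr7g0266041 was at 146 and 117 CPM in R5P, against 4.09 and 4.27 CPM in R5 (4.97, adjusted p = 4.39e-08, edgeR). In the GRAS family 5 of 9 were higher and 2 lower. In the NAM family 4 of 9 were higher and 3 lower (44.4% and 33.3%, against 38.3% and 33.7% of all named genes). MYB genes, with 13 of 39 in each direction, and bHLH genes, with 9 higher and 10 lower of 27, lay near the 38.3% higher and 33.7% lower of all named genes. WRKY genes gave 1 lower of 6 and none higher. MtDELLA3 (MtrunA17_Chr2g0306641), a GRAS repressor of gibberellin signalling, was at 5.11 and 4 CPM in R5P, against 1.78 and 1.55 CPM in R5 (1.45, adjusted p = 0.00124, edgeR). This call was lost in the model of all 16 libraries (1.34, adjusted p = 0.0658, edgeR).

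Factors with an HSF-type DNA-binding domain, which activate heat shock genes, were higher in 6 of 7 cases, with a median of 2.31. The gene MtrunA17_Chr4g0071051 was at 61 and 55.6 CPM in R5P, against 0.757 and 0.405 CPM in R5 (6.64, adjusted p = 4.84e-08, edgeR). The heat shock proteins themselves, chaperones that hold or refold other proteins, had 9 of 23 members higher and 8 lower, with a median of 0.58, which is near the 38.3% and 33.7% of all named genes. An HSP70 (MtrunA17_Chr4g0073741) was at 792 and 526 CPM in R5P, against 1.55 and 1.44 CPM in R5 (8.78 ± 0.30 SE, adjusted p = 3.58e-08, edgeR), and a small HSP20 (MtrunA17_Chr1g0150811) was at 232 and 134 CPM in R5P, against 6.28 and 6.07 CPM in R5. In contrast, 3 of the 4 HSP90 genes tested were called lower, among them MtrunA17_Chr5g0447581 with 15.7 and 20.2 CPM in R5P and 90.9 and 95.2 CPM in R5 (-2.37, adjusted p = 1.33e-06, edgeR). The HSP70 gene MtrunA17_Chr7g0223291 was not called, with 1969 and 1626 CPM in R5P and 1658 and 1589 CPM in R5.

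Redox genes leaned upwards, to a degree that depended on the scaling. Of 47 genes for glutathione, thioredoxin, superoxide dismutase and related functions, 27 were called higher and 9 lower, with a median of 1.10. These are 57.4% and 19.1%, against 38.3% and 33.7% of all named genes. With library totals 18 were higher and 10 lower, with a median of 0.75. A thioredoxin-disulfide reductase (MtrunA17_Chr3g0117411), which recycles thioredoxin, was at 30.6 and 28.4 CPM in R5P, against 2.42 and 2.54 CPM in R5 (3.57, adjusted p = 6.45e-07, edgeR). Of 9 peroxidases 3 were higher and 3 lower, again near the share of the named genes: MtrunA17_Chr4g0074851 was at 5376 and 6159 CPM in R5P and 759 and 799 CPM in R5, whereas MtrunA17_Chr4g0075241 was at 3.44 and 2.65 CPM in R5P and 34.1 and 36.8 CPM in R5. Aquaporins (major intrinsic proteins), channels for water and small solutes, gave 4 higher and 1 lower of 6, but 2 higher when library totals were used. The aquaporin MtrunA17_Chr1g0188771 had counts of 313 and 602 in R5P against 2 and 3 in R5, a ratio of 234 with a 95% exact binomial interval of 100 to 723.

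Ribosomal protein genes, the largest list, were higher in 70 of 125 cases and lower in 3, with a median of 1.05, close to the threshold of 1. This count depended on the scaling and on the library, with 23 higher when library totals were used and 34 without the second R5P library. In sum they made up 47811 and 60508 CPM in R5P, against 27150.0 and 24809.9 CPM in R5. The gene for ribosomal protein S17/S11 MtrunA17_Chr6g0449611 was at 23.4 and 37.5 CPM in R5P, against 7.15 and 6.15 CPM in R5 (2.20, adjusted p = 3.34e-05, edgeR), whereas L3 (MtrunA17_Chr1g0201721) was at 1273 and 1560.1 CPM in R5P and 915 and 854 CPM in R5 and missed the fold change. F-box genes, which select proteins for degradation, were higher in 63 of 85 cases and lower in 7 (median 1.40), with 44 higher under library totals. The F-box gene MtrunA17_Chr1g0172321 was at 33.6 and 17.3 CPM in R5P, against 0.114 and 0.147 CPM in R5 (7.55, adjusted p = 1.19e-06, edgeR). Protein phosphatases, which include the co-receptors of abscisic acid, gave 6 higher and 11 lower of 38, with 19 lower under library totals. The shares of 15.8% higher and 28.9% lower were below the 38.3% and 33.7% of all named genes. The phosphatase MtrunA17_Chr5g0396731 was at 79.3 and 50.9 CPM in R5P, against 0.0378 and 0.147 CPM in R5 (9.37, adjusted p = 3.05e-07, edgeR), with 8.73 without the first R5 library and 10.55 without the second.

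The defensins named by the study, small antimicrobial proteins, were called higher. MtPDF51 (MtrunA17_Chr8g0385301) is a defensin by the study's symbol, whereas its annotation reads putative oxidoreductase. It was at 46.9 and 85.3 CPM in R5P, against 0.0378 and 0.258 CPM in R5. MtPDF32 (MtrunA17_Chr2g0317741) and MtPDF33 (MtrunA17_Chr2g0317751) were at 7.36 and 18.7 and at 15.7 and 24.8 CPM in R5P, against 0.0378 and 0.147 and 0.719 and 0.662 CPM in R5. In all 3 the second R5P library was the higher one.

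Most named genes of cell division were lower in R5P. Of 21 kinesins, motors that move along microtubules, 18 were called lower (85.7%, against 33.7% of named genes) and none higher, with a median of -1.87. In R1P against R1, 20 of them were lower and none higher. Named genes include those the study selected as lowered in R1P, so such one-sided counts describe that choice in part. The kinesin MtrunA17_Chr7g0266631 was at 4.57 and 5.12 CPM in R5P, against 41.9 and 46.3 CPM in R5 (-3.19 ± 0.16 SE, adjusted p = 2.69e-07, edgeR). Of 10 DNA replication genes 7 were lower and none higher (median -1.35), among them a DNA polymerase (MtrunA17_Chr3g0098181) at 3.19 and 5.72 CPM in R5P, against 25.9 and 30.1 CPM in R5 (-2.64, adjusted p = 2e-05, edgeR). Cyclins and inhibitors of cyclin-dependent kinases went both ways, with 8 of 15 lower (53.3%) and 5 higher (33.3%, against 38.3% of named genes). The 5 higher genes were 3 kinase inhibitors of the SMR group, which hold the cycle back, and 2 cyclin domain genes, MtCycD2-1 (MtrunA17_Chr3g0133211) and MtrunA17_Chr3g0134261. The call of MtCycD2-1, at 1.03, was lost without the first R5 library (0.99). The other was at 141 and 151 CPM in R5P, against 7.49 and 7.95 CPM in R5 (4.24, adjusted p = 3.25e-08, edgeR).

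Many cytoskeleton and cell wall genes were also lower. Of 13 tubulin and myosin genes, grouped after their values were seen, 12 were lower and none higher. The tubulins MtrunA17_Chr3g0140821 and MtrunA17_Chr1g0206881 were at 282 and 337 and at 374 and 489.8 CPM in R5P, against 2699.9 and 2292 and 1638 and 1422 CPM in R5, with no overlap. Of 47 cell wall genes 22 were lower (46.8%, against 33.7% of named genes) and 12 higher (25.5%, against 38.3%), with a median of -1.11. An extensin (MtrunA17_Chr1g0161771), a structural wall protein, was at 28 and 12.9 CPM in R5P, against 599 and 329 CPM in R5 (-4.50 ± 0.48 SE, adjusted p = 3.28e-05, edgeR), and its change was -5.16 without the first R5P library. Wall genes with the opposite change included 5 xyloglucan:xyloglucosyl transferases, which cut and rejoin xyloglucan, as in MtrunA17_Chr4g0072601 with 32.3 and 33.8 CPM in R5P and 1.93 and 2.43 CPM in R5 (3.92, adjusted p = 2.09e-07, edgeR).

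Triterpene synthesis, which in *Medicago* feeds the saponins, was lowered as a group, again put together after the values were seen. Of 10 genes 9 were called lower and none higher, with a median of -3.91, or -3.22 with floor genes at their bound, and their sum was 232 and 290.1 CPM in R5P, against 3616 and 3996 CPM in R5. A beta-amyrin 28-monooxygenase (MtrunA17_Chr8g0388921), which oxidises the triterpene backbone, was at 153 and 215 CPM in R5P, against 1993 and 2199.8 CPM in R5 (-3.51 ± 0.19 SE, adjusted p = 4.07e-07, edgeR). Cytochrome P450 72A68 (MtrunA17_Chr2g0307301) was at 24.1 and 20.3 CPM in R5P, against 618 and 677 CPM in R5 (-4.87 ± 0.16, adjusted p = 3.08e-08, edgeR). Squalene monooxygenase (MtrunA17_Chr4g0049291), which makes the epoxide from which sterols and triterpenes derive, was at 4.52 and 3.95 CPM in R5P, against 109 and 113 CPM in R5 (-4.71 ± 0.21, adjusted p = 1.43e-07, edgeR). The exception, a squalene/phytoene synthase (MtrunA17_Chr5g0398961), was at 8 and 10.8 CPM in R5P and 10.1 and 8.65 CPM in R5.

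Lipid transfer proteins divided, with 5 of 13 higher (38.5%) and 7 lower (53.8%). So did auxin genes, with 4 of 13 higher (30.8%) and 6 lower (46.2%). Of all named genes, 38.3% were higher and 33.7% lower. Among the lower auxin genes, a small auxin-up RNA (MtrunA17_Chr4g0070071) was at 3.44 and 6.93 CPM in R5P, against 25.5 and 24.7 CPM in R5. Of 8 gibberellin genes 4 were higher and 1 lower. The 4 higher ones were all gibberellin regulated proteins, such as MtrunA17_Chr1g0207611 at 91.3 and 124 CPM in R5P, against 33.5 and 34.9 CPM in R5 (1.65, adjusted p = 2.44e-05, edgeR). Of 7 genes listed under anaerobic metabolism, which are alcohol dehydrogenases and related cinnamyl-alcohol dehydrogenases, 3 were higher (42.9%, near the share of named genes) and none lower.

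Radicles of 1 mm regain DT in PEG, so their response, R1P against R1, shows where the response of 5 mm radicles differed. The 2 comparisons share no library. In 1 mm radicles 3613 genes were higher (15.2%) and 4887 lower (20.5%). Of the genes higher in R5P, 2630 were also higher in R1P, which is 58.6% of the R5P list and 72.8% of the R1P list. Of those lower in R5P, 3162 were also lower in R1P, or 65.0% and 64.7% of the lists. Opposite calls were made for 138 genes, 91 higher in R5P but lower in R1P and 47 lower in R5P but higher in R1P. The difference of the 2 responses, tested in the same model, was called for 1220 genes toward a more positive change at 5 mm (5.13%) and for 839 toward a more negative one (3.53%). Among the 1765 genes called higher at 5 mm but not called at 1 mm, the difference itself was called for 378, and among the 1652 lower at 5 mm only, for 282. The number of called differences depended on single libraries, at 1170 in all without the first R5 library and 1225 without the second. So did its balance, with 640 more positive and 757 more negative differences without the first R1P library and 665 and 729 without the second, and RLE factors in place of TMM gave 1054 and 980.

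**Figure D3:**
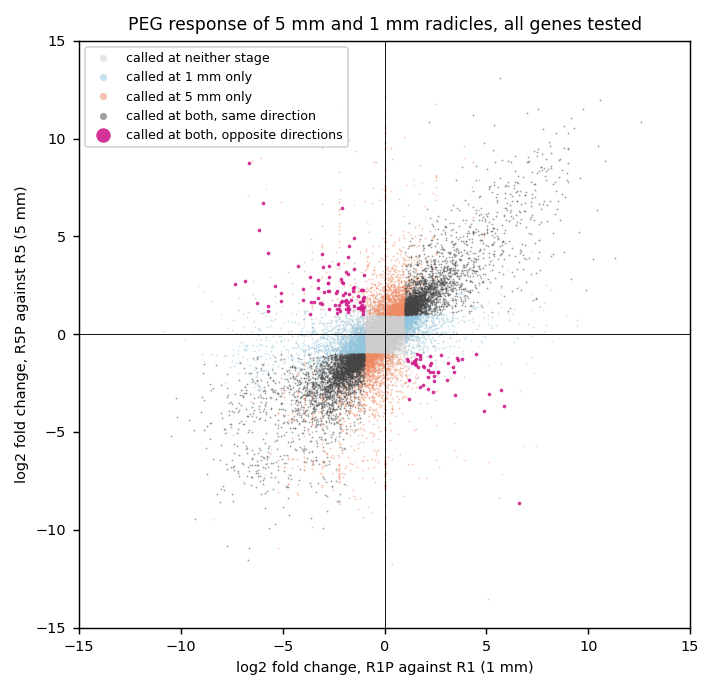
Log2 fold change of each of the 23793 genes in 5 mm radicles (R5P against R5, vertical axis) and in 1 mm radicles (R1P against R1, horizontal axis), coloured by where it was called. Genes called in the same direction at both stages fill the lower left and upper right, and the 138 genes with opposite calls lie in the other corners.

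LEA proteins, oleosins and storage proteins had equal counts at both stages, whereas the raffinose family enzymes had 7 of 7 higher at 5 mm and 6 higher and 1 lower at 1 mm. LEA proteins and dehydrins had 18 higher and 1 lower at either stage, with medians of 7.14 at 5 mm and 6.57 at 1 mm. Oleosins had 7 of 7 higher at both, with medians of 7.86 and 8.86, and storage proteins 9 of 9, with medians of 5.15 and 5.40. The difference was nevertheless called for 5 of the LEA genes (3 more positive at 5 mm and 2 more negative), 3 of the oleosins and 2 of the storage proteins. In ribosomal proteins 108 of 125 were higher at 1 mm against 70 at 5 mm, yet the difference was called for 2, and the median difference was -0.15. Peroxidases were the reverse case, with 6 of 9 lower at 1 mm against 3 at 5 mm, and 5 of 9 differences called, all more positive at 5 mm. Among them, MtrunA17_Chr2g0292111 and MtrunA17_Chr5g0404721 belong to the study's cluster 5, which was chosen as lowered in R1P. Heat shock proteins had 8 of 23 differences called and bHLH factors 6 of 27, also all more positive at 5 mm. Over all genes, 5.13% of the differences were called more positive at 5 mm and 3.53% more negative. That balance depended on single libraries, and for the lists this dependence was not tested. WRKY factors had 5 of 6 lower at 1 mm and 1 of 6 at 5 mm, and 1 difference was called. All these lists hold named genes, most of which the study had selected for a change between R1P and R1 in these libraries. The study's clusters were also formed on levels that include R5P and R5. The counts of the lists at both stages and their called differences therefore describe that choice in part. They are no independent evidence that a family differs between stages.

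**Figure D4:**
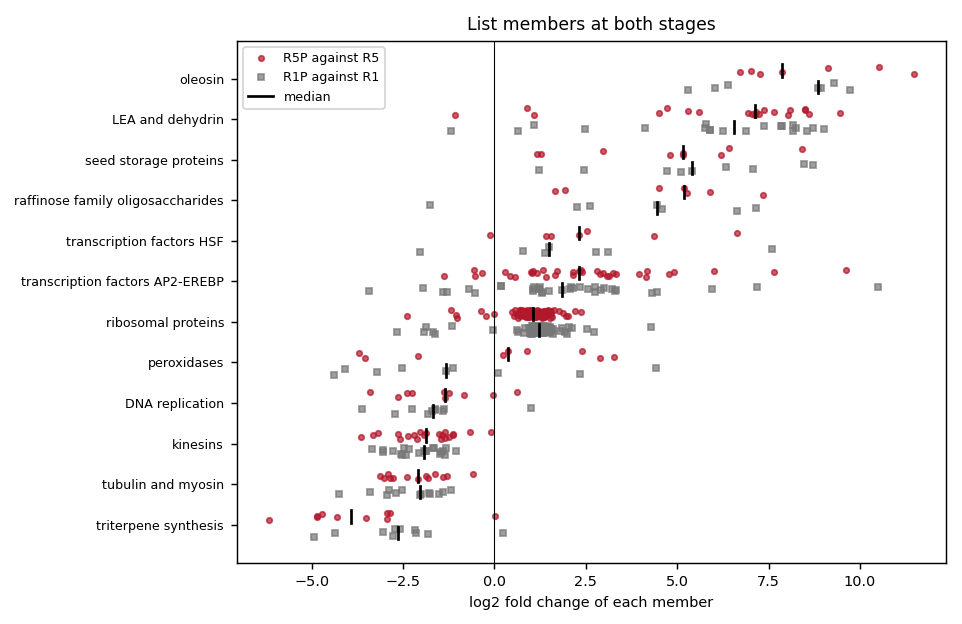
Log2 fold change of each tested member of 12 gene lists in R5P against R5 (circles) and in R1P against R1 (squares), with a vertical bar at the median of each. The medians of the LEA list are 7.14 and 6.57, those of the kinesins are -1.87 and -1.93, and those of the peroxidases are 0.37 and -1.32.

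The genes whose responses differed most were of several kinds. A glycosidase (MtrunA17_Chr5g0425451) was at 95 and 77.2 CPM in R5P and 0.0378 and 0.294 CPM in R5, against 0.156 and 0.15 CPM in R1P and 0.204 and 0.0383 CPM in R1, so that only the R5P libraries exceeded 1 CPM (difference 8.60, adjusted p = 0.00411, edgeR). Its change at 5 mm was 8.16 without the first R5 library and 10.95 without the second. A galactinol synthase (MtrunA17_Chr1g0193011) was at 119.7 and 133 CPM in R5P and 6.25 and 4.89 CPM in R5, against 2.13 and 1.86 CPM in R1P and 7.65 and 5.97 CPM in R1, a rise at 5 mm and a fall at 1 mm (difference 6.27, adjusted p = 5.64e-06, edgeR). Opposite calls were likewise made for a universal stress protein (MtrunA17_Chr1g0195661), with 65 and 69.8 CPM in R5P and 11.7 and 10.1 CPM in R5, against 2.6 and 2.76 CPM in R1P and 18.8 and 17.5 CPM in R1 (difference 5.38, adjusted p = 5.5e-06, edgeR). A ribulose-bisphosphate carboxylase gene (MtrunA17_Chr4g0072241), of the carbon-fixing enzyme, had a log2 change of 1.82 at 5 mm and -3.26 at 1 mm (difference 5.08, adjusted p = 9.23e-05, edgeR). The 2 alcohol dehydrogenases that the study names, enzymes of fermentation under low oxygen, also differed in this way. MtrunA17_Chr3g0125961 was at 173 and 249 CPM in R5P and 94.3 and 80.004 CPM in R5, against 39.2 and 38.3 CPM in R1P and 136 and 155 CPM in R1 (difference 3.18, adjusted p = 9.54e-05, edgeR). MtrunA17_Chr3g0125911 changed by 0.79 at 5 mm, not called, and by -3.62 at 1 mm (difference 4.41, adjusted p = 2.96e-05, edgeR).

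In some genes the untreated radicles differed more between stages than the treated ones, and in others the treated ones did. The glycine rich protein gene MtrunA17_Chr5g0438501 was at 689 and 664 CPM in R5P and 46.9 and 45.7 CPM in R5, against 609 and 703 CPM in R1P and 2.77 and 4.33 CPM in R1 (difference -3.66, adjusted p = 4.74e-05, edgeR). An O-methyltransferase (MtrunA17_Chr5g0432301) was at 18 and 16 CPM in R5P, 19.7 and 22.7 CPM in R1P and 19.4 and 21 CPM in R1, and stood out in R5 with 117 and 135 CPM (difference -2.96, adjusted p = 4.53e-05, edgeR). MtABI3 had a larger change at 5 mm than at 1 mm (difference 2.66, adjusted p = 0.000221, edgeR), yet its level was 16.9 and 14.1 CPM in R5P, against 84.2 and 83.3 CPM in R1P and 22.8 and 21.9 CPM in R1: treated 5 mm radicles stayed below untreated 1 mm radicles. MtABI4 showed the same order for the change (difference 1.81, adjusted p = 0.0138, edgeR), with 10.4 and 7.12 CPM in R5P, 30.7 and 25.7 CPM in R1P and 10.8 and 9.08 CPM in R1. The C3H factor MtrunA17_Chr4g0040391, named SOMNUS (SOM) in *Arabidopsis thaliana*, where it represses germination in the dark, was at 77.7 and 98.2 CPM in R5P and 6.43 and 4.42 CPM in R5, against 487 and 433 CPM in R1P and 5.29 and 5.71 CPM in R1 (difference -2.37, adjusted p = 0.000696, edgeR). Cytochrome P450 716A67 (MtrunA17_Chr2g0288661) was at 31.3 and 27.5 CPM in R5P and 794 and 908 CPM in R5, against 145 and 171 CPM in R1P and 744 and 654 CPM in R1, so that it was lower after PEG at both stages and more so at 5 mm (difference -2.71, adjusted p = 8.42e-05, edgeR). The chlorophyll A-B binding protein MtrunA17_Chr5g0448421, a protein of the light-harvesting antenna and one of the greening markers, was at 64.9 and 76.5 CPM in R5P and 9.69 and 7.1 CPM in R5, against 27.4 and 28.1 CPM in R1P and 0.244 and 0.728 CPM in R1 (difference -2.73, adjusted p = 0.00307, edgeR). Chloroplast genes held 0.27% and 0.13% of the counts in R5P and 0.07% in each R5 library.

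**Figure D5:**
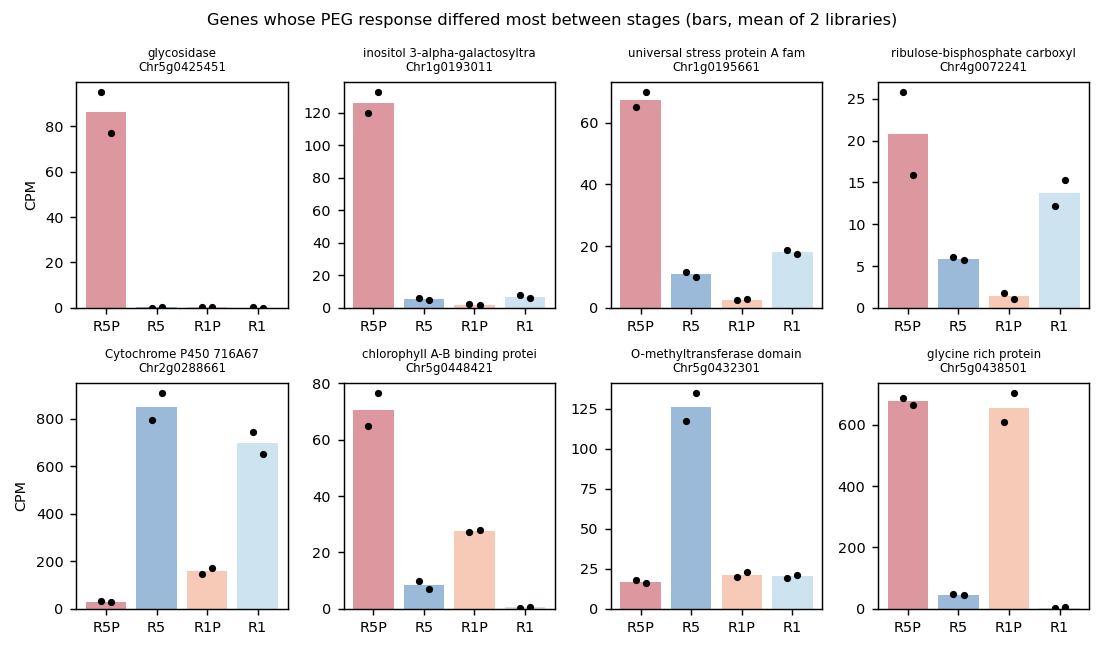
Level in CPM of the 8 annotated genes whose PEG response differed most between stages, with bars at the mean of 2 libraries and points for each library, in R5P, R5, R1P and R1. The glycosidase exceeds 70 CPM in R5P only, and the O-methyltransferase exceeds 100 CPM in R5 only.

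The gene lists of the study were also looked up in the R5P and R5 libraries. Its clusters were formed on the levels in R1, R1P, R5 and R5P, so their counts describe the choice and are no independent evidence. Of 915 tested genes of cluster 1, chosen for a peak in R1P, 532 were called higher in R5P than in R5 (58.1%) and 2 lower. With library totals these were 315 and 7, and the median with TMM was 1.16. Of 102 tested genes of cluster 5, chosen as lowered in R1P, 23 were higher in R5P (22.5%) and none lower, 14 and 1 with library totals. Over all genes, 18.9% were higher and 20.4% lower, so the share of higher genes in cluster 5 was near that of all genes. The list of genes in regions more open in R1P than in R1 and R5 together was chosen on chromatin, without RNA. Accessibility was measured in R1, R1P and R5 but not in R5P. In R5P 378 of its 622 tested genes were higher (60.8%, against 18.9% of all genes) and 37 lower, with a median of 1.80, and 341 were higher and 37 lower in R1P. Of the genes of that list, 307 were higher at both stages, 71 were called higher at 5 mm but not at 1 mm and 34 at 1 mm but not at 5 mm. A hydroquinone glucosyltransferase (MtrunA17_Chr7g0232411) among the 71, picked after its values were seen, was at 265 and 156 CPM in R5P and 7.19 and 6.84 CPM in R5, against 7.54 and 7.77 CPM in R1P and 4.52 and 3.45 CPM in R1 (difference 3.96, adjusted p = 0.000164, edgeR). Of 198 tested genes in a shortened list of regions more open in R1 and R5, 106 were lower in R5P than in R5 and 10 were higher, with a median of -1.51. These are 53.5% and 5.05%, against 20.4% and 18.9% of all genes, and 110 further genes of the list were not tested.

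Cotyledons of the same seeds gave fewer calls. In the model of all 16 libraries, 2664 of 25524 genes were higher in C5P than in C5 (10.4%) and 3146 lower (12.3%). The response of the radicle was called more positive than that of the cotyledon for 2418 genes (9.47%) and more negative for 2942 (11.5%). For the overlaps, radicle calls were those of the model of 8 radicle libraries (23793 genes), and cotyledon calls those of the 16 libraries. In the latter, 3788 genes were higher and 5009 lower in R5P than in R5. Of the genes higher in R5P, 1504 were also higher in C5P, which is 33.5% of the radicle list and 56.5% of the cotyledon list, and 196 were lower in C5P. Of those lower in R5P, 1327 were lower in C5P (27.3% and 42.2% of the lists) and 135 were higher. In the model of 16 libraries MtABI3 (MtrunA17_Chr7g0237841) changed by 4.45 in radicles and 4.49 in cotyledons, while MtABI5 (MtrunA17_Chr7g0266211) changed by 1.65 in radicles and 4.96 in cotyledons (difference for MtABI5 -3.31, adjusted p = 8.45e-05, edgeR). The alcohol dehydrogenase MtrunA17_Chr3g0125961 was called higher in R5P than in R5, a call that was lost without the second R5P library (0.96), and lower in C5P than in C5 (-2.55, adjusted p = 4.05e-05, edgeR).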

How the data were processed

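RNA-Seq was analysed in the R5P and R5 libraries, with the other radicle and cotyledon libraries for comparison. The authors mapped single-end reads to the Mtv5 transcriptome (annotation r1.6) with Salmon version 1.2 and deposited estimated counts (expected counts) of 44473 genes, unscaled for depth or length. Salmon divides reads between similar transcripts, so members of gene families are uncertain. Counts were rounded to whole numbers and tested with edgeR version 4.0.16 (quasi-likelihood, TMM, filterByExpr, Benjamini-Hochberg) in R version 4.3.3, in 1 model of 8 radicle libraries, or of 16 libraries for tissues. The study used DESeq2 with the same thresholds, and DESeq2 version 1.42.0 was an alternative here. The count test was tested on simulated data for R5P against R5, where 200 of 200 genes changed by 2 on the log2 scale were recovered with 18 false calls among 23793 genes. Those 200 genes were above a minimum level and changed in equal numbers up and down. In the real data 39.3% of genes were called and the split depended on the scaling, a condition that the simulation did not test. A floor of 3 counts per library was used for bounds, which cover counting error only.

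The 28 lists were made by words in the annotation, and 2 were added after values were seen. Members and lists were chosen with earlier results of these data known. Named genes were the 8 largest annotated rises and falls of at least 10 CPM without overlap, the 4 largest gains and losses in CPM, the strongest called and highest uncalled member of each list, the 4 largest differences between stages in each direction, genes the study names, and MtDELLA3. Other named list members, the chromatin-list gene and MtCycD2-1 were chosen after their values were seen. Gene names come from the study's supplementary tables, of which some sheets were held in part, and 0 identifiers matched the RefSeq table. Genome coordinates were not used here.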

Additional observations from a re-analysis of the deposited data

Results flagged for a closer look

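The PEG response of the following genes differed between 5 mm and 1 mm radicles in edgeR's test of the difference itself, given as the 5 mm minus the 1 mm log2 fold change. It was more positive at 5 mm for the glycosidase MtrunA17_Chr5g0425451 (8.60), the galactinol synthase MtrunA17_Chr1g0193011 (6.27), the universal stress protein MtrunA17_Chr1g0195661 (5.38), the ribulose-bisphosphate carboxylase gene MtrunA17_Chr4g0072241 (5.08), the alcohol dehydrogenases MtrunA17_Chr3g0125911 (4.41) and MtrunA17_Chr3g0125961 (3.18), the aldose reductase MtrunA17_Chr7g0243551 (3.98) and the hydroquinone glucosyltransferase MtrunA17_Chr7g0232411 (3.96). The same held for the HSP70 gene MtrunA17_Chr4g0073741 (3.38), MtABI3 (2.66), the HSP20 gene MtrunA17_Chr1g0150811 (2.33), the dehydrin HIRD11 (2.01), the cupin MtrunA17_Chr1g0185301 (1.87), MtABI4 (1.81), the cyclin domain gene MtrunA17_Chr3g0134261 (1.65), the oleosin MtrunA17_Chr7g0227501 (1.22) and the thioredoxin-disulfide reductase MtrunA17_Chr3g0117411 (1.14). A more positive difference was not always a higher level after PEG. The aldose reductase was at 78.7 and 59.8 CPM in R5P and 135 and 127 CPM in R1P, with 0 and 1 counts in R5. The oleosin MtrunA17_Chr7g0227501 was at 2555 and 1854 CPM in R5P and 4973 and 3942 CPM in R1P. Other genes were higher in R5P, such as the HSP70 gene, at 792 and 526 CPM against 64.2 and 58.5 CPM in R1P.

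The PEG response was more negative at 5 mm for the glycine rich protein MtrunA17_Chr5g0438501 (-3.66), the O-methyltransferase MtrunA17_Chr5g0432301 (-2.96), the chlorophyll A-B binding protein MtrunA17_Chr5g0448421 (-2.73), the cytochrome P450 genes 716A67 (-2.71) and 72A68 (-1.81), the squalene monooxygenase MtrunA17_Chr4g0049291 (-2.53), the C3H factor MtrunA17_Chr4g0040391 (-2.37), the 11-S storage protein MtrunA17_Chr1g0185841 (-2.07) and the beta-glucosidase MtrunA17_Chr4g0006131 (-1.75). The same held for the beta-amyrin 28-monooxygenase MtrunA17_Chr8g0388921 (-1.69), the lipid transfer domain gene MtrunA17_Chr4g0060391 (-1.45), MtDELLA3 (-1.43) and the galactinol synthase MtrunA17_Chr7g0271581 (-1.24). With 2 libraries per group, no group was large enough to be searched for single libraries that stand apart.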

How the results depend on the processing

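Of the 88 genes named in the text or by the rule that were called, 80 kept their call under all 17 alternatives, and none of them reversed. MtCycD2-1 (MtrunA17_Chr3g0133211) was also not called with DESeq2 (0.99). The count between R5P and R5, 9347, ranged from 7801 to 9588 when 1 library was left out, and was 8658 with DESeq2, 9797 with library totals and 5735 with the TREAT test, which requires the change itself to exceed the threshold. The replicate numbers were not taken as pairing, since the deviations of R5P and R5 replicates correlated at 0.0728, and with the replicate block the count was 9237, against 8429 for R1P against R1 and 2219 for the stage difference. The stage difference, 2059 genes, ranged from 1170 to 2739 without 1 library. With library totals, the higher members fell to 23 ribosomal proteins, 2 aquaporins, 315 genes of cluster 1 and 14 of cluster 5, and the lower members were 19 phosphatases and 3 WRKY factors. Without 1 library of R5P or R5, chosen as an alternative after seeing the data, the higher members ranged from 34 to 90 for ribosomal proteins, 3 to 5 for abscisic acid metabolism and 1 to 4 for anaerobic metabolism, and the lower members from 4 to 7 for lipid transfer proteins and 0 to 2 for WRKY factors. The causes of these shifts were not tested. The GATA factor MtrunA17_Chr3g0140331 and the ZF-HD factor MtrunA17_Chr3g0133181, called higher by 1.09 and 1.16 on the log2 scale, were not called with library totals (0.74 and 0.80). With 2 libraries per group, an exact test of a single gene could not go below p = 0.333, and genes with under 3 counts in each R5P and R5 library were not resolved.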
